A study of Daphnia magna with 24 samples.

Results

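Among 7680 array features measured in whole Daphnia magna exposed to water from a copper mine, 74 were chosen for a high exposed-over-control ratio in tailings water, in Little Grizzly Creek water and in the first of the exposures to mine portal water. The choice used exposure values, each the mean of 2 arrays of opposite dye. A feature needed a value in at least 2 exposures of each of the 4 sites, which 6504 features had. Its mean had to reach 0.7 log2 units both in tailings and in creek water, and its value in portal exposure 1 had to reach 0.5. The tailings, creek and portal exposure 1 values of these 74 features are therefore given as a description only, and tests were limited to the 5 exposures that the choice did not use, which are upstream exposures 1 to 3 and portal exposures 2 and 3.

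The study set out to find how waters from sites at Walker Mine, which differed in copper contamination, change gene expression in this water flea. Genetically homogeneous adult females aged 14 to 16 days were held for 24 h at 23.5 °C in water from 1 of 4 places, upstream of the mine, below its portal, below its tailings, or in Little Grizzly Creek, with 3 exposures per site. Whole animals, 10 to 15 pooled per exposure, gave the RNA. Each exposure was hybridised on 2 arrays, with the dyes exchanged, against animals kept in the defined culture medium COMBO, so that every value is a ratio to unexposed animals. Copper concentrations were not used here, and no order of the sites by copper was assumed. The labels call the exposures of one site biological replicates, and leave unsaid whether control RNA was shared between exposures.

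Daphnia magna filters large volumes of water and is a standard test animal for metals in fresh water. Copper is an essential cofactor of enzymes such as cytochrome c oxidase, and in excess it disturbs sodium uptake and promotes oxidative damage in freshwater crustaceans. Animals bind surplus metal ions with proteins such as metallothioneins. Whether any of the 74 features stands for such a gene is not known here, because the deposited table pairs no feature with a gene. None of the 7680 identifiers, which are position codes such as P4CB5, matched the 28335 genes of the RefSeq table for this species, so no gene or sequence is named. Because whole animals were measured, a change in RNA per cell and a change in the number of cells of a type cannot be told apart.

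The ratios are read as exposed animals over control animals, the likely direction, so a high value is likely more RNA in exposed animals. The labels list exposed animals as channel 2, and the 2 arrays of an exposure had correlations across features of 0.616 to 0.91 despite their opposite dyes, so the deposited ratios had already been turned the same way. Nothing states which way. Of the 132 array pairs that shared a dye orientation, 5 had correlations under -0.3, down to -0.376. All 5 set an exposure of number 2 against one of number 3, with the exposed animals in Cy5. Each included upstream exposure 2, upstream exposure 3 or portal exposure 3, so the direction of single exposures is not fully settled. Tailings exposure 2 and creek exposure 2 were the others involved. Across features, upstream exposure 2 correlated at 0.39, 0.266 and 0.225 with portal, tailings and creek exposures 2. Its correlations with the exposures of numbers 1 and 3 were negative, from -0.0196 to -0.323. Upstream exposure 3 and portal exposure 3 correlated at 0.788 with each other, and at 0.541 and 0.49 with portal exposure 1. With creek exposure 2 they correlated at -0.304 and -0.377. Several counts are therefore also given with upstream exposure 2 turned, and the comparison within exposure number 3 with either of its exposures turned. The log base is not stated and was read as 2. Arrays held 5106 to 7548 values, and the SD across features of an exposure ran from 0.282 in upstream exposure 2 and 0.30 in portal exposure 2 to 0.792 in portal exposure 3. Signal strengths were not used here, and the 3 exposures per site limit the precision of a site mean.

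The 74 features had a median ratio of 1.74 log2 units in tailings water and 1.74 in Little Grizzly Creek water, as averages over the exposures of a site. Their mean over both sites ran from 0.79 to 3.87, with a median of 1.71, which is 3.28-fold if the base is 2. In portal exposure 1 they ran from 0.52 to 3.09 with a median of 1.11. In the single exposures the medians were 1.78, 1.85 and 2.01 in tailings exposures 1, 2 and 3, and 1.96, 1.69 and 1.83 in creek exposures 1, 2 and 3. The median of all 6504 features lay between -0.019 and 0.032 in those 6 exposures and at 0.017 in portal exposure 1. All values in tailings water were positive, and so were all but 1 in creek water, where P11BD12 stood at -0.43 in exposure 2.

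P11CH10 and P4CB5 had the highest means over tailings and creek water. P11CH10 stood at 3.76, 3.80 and 3.56 in the 3 tailings exposures and at 3.85, 3.94 and 4.32 in the 3 creek exposures. It was at 2.84 in portal exposure 1, at 0.054 in portal exposure 2 and blank in portal exposure 3. Its upstream values were 0.75, -0.23 and 1.17 in exposures 1 to 3. The high portal value thus lay between the upstream values and those of both other waters, while portal exposure 2 lay within the upstream range.

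P4CB5 stood at 3.71, 3.71 and 3.72 in the tailings exposures and at 3.89, 4.21 and 3.61 in the creek exposures. Its 3 portal values were 3.09, 0.026 and 1.97, and its 3 upstream values 1.10, -0.30 and 1.16. Its tailings and creek values overlapped each other and lay above all portal and upstream values.

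**Figure D1:**
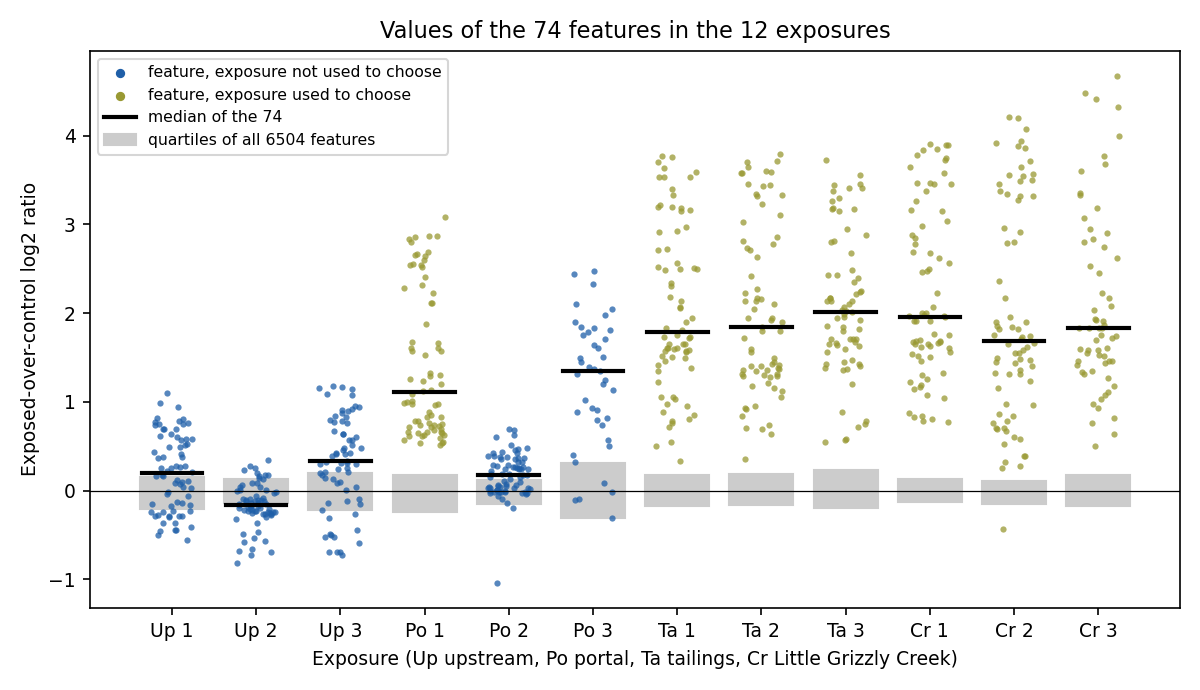
Exposed-over-control log2 ratio (vertical axis) of the 74 features in the 12 exposures (horizontal axis); points are features, black bars their medians, grey boxes the quartiles of all 6504 features, and olive points mark exposures used in the choice. The medians in tailings and creek water lie between 1.69 and 2.01, that of portal exposure 3 at 1.35, and those of portal exposure 2 and the upstream exposures between -0.16 and 0.33.

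The features next to the thresholds lay close on both sides. The lowest tailings mean inside was 0.75 (P3AB6), and the nearest feature below that threshold, A6E6, had 0.64. In creek water these values were 0.79 (P9BF11) and 0.68 (P6CB2). In portal exposure 1, A1K2 lay just inside at 0.52 and P4AE10 just outside at 0.49.

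Creek and tailings values of the same feature were close. The creek mean was above the tailings mean in 44 of the 74 features, against 47.2% of all 6504 features. The median difference, creek minus tailings, was 0.058, against -0.010 over all 6504 features. Differences ran from -0.71 to 0.59, while the exposures of a site scattered with a median SD of 0.27 in tailings and 0.36 in creek water.

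Among features with 3 values at both sites, the furthest apart were P5DD11 and P10DH11 on the creek side. P5DD11 averaged 3.90 ± 0.67 in creek and 3.31 ± 0.084 in tailings water, and P10DH11 4.04 ± 0.39 and 3.53 ± 0.08 (SD, n = 3 at each site). Creek and tailings exposures did not overlap in either. On the tailings side, A6J11 averaged 1.82 ± 0.62 in tailings and 1.10 ± 0.83 in creek water, and P5CC10 1.69 ± 0.48 and 1.18 ± 0.69 (SD, n = 3 at each site), and here the exposures of both waters overlapped. No test was made, because these values chose the features.

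In portal water, the exposures that the choice did not use differed from each other. In portal exposure 3 the 41 features with a value had a median of 1.35 log2 units, from -0.31 to 2.48, and 33 of them reached 0.5, a level reached by 18% of all tested features with a value there. In portal exposure 2 all 74 had a value, with a median of 0.18 and a range from -1.04 to 0.70, and 5 of them reached 0.5, against 2.52% of all tested features. These 5 were A6E5, A6P16, P3AB6, P9BF11 and P9DD8, which lay between 0.51 and 0.70. Positive values were nevertheless more common than over all features in both: 58 of 74 in exposure 2, against 47.4%, and 37 of 41 in exposure 3, against 46.2%. The 4 features at or below 0 in exposure 3 were A3M15, A4F6, P13AD1 and P8BG4. Portal exposure 2 was below portal exposure 1 in all 74 features, by a median of 0.90, a fall favoured by choosing on exposure 1. Over all tested features, portal exposure 2 was above portal exposure 1 in 49.1%. Portal exposure 3 was above portal exposure 2 in 36 of 41 features, against 48.7% of all tested features. The choice required a high value in portal exposure 1, and the tailings and creek exposures of numbers 2 and 3 also entered it, so if exposures of one number shared control RNA, these values are not fully independent of the choice.

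Portal exposure 3 was blank for 33 of the 74 features (44.6%), against 31.8% of all tested features. In 31 of the 33, only 1 of the 2 arrays was blank, and the other array gave a median of 0.97, from -0.44 to 3.62. Of these 31 values, 23 were above 0 and 17 at 0.5 or more. The shares over all tested features with only 1 blank array were not counted, so these counts are a description only. The arrays of this exposure also differed most. The median of the 41 features was 1.49 with the exposed animals in Cy5 and 1.04 with them in Cy3, and the arrays stood a median of 0.31 from their mean, against 0.051 in portal exposure 2. After quantile normalisation the median of portal exposure 3 was 0.63, and with equal spread on each array 0.72.

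No feature among the 74 passed the test of portal exposures 2 and 3 against control at an adjusted p of 0.05 by limma with Benjamini-Hochberg adjustment over all 6504 features. The count over all features was also 0, or 0%, in both directions. At an unadjusted p under 0.05, limma gave 22 of the 74 above control and 0 below, against 8.06% and 7.04% of all features. The estimates ran from -1.04 to 1.40 with a median of 0.36, and 67 of 74 were positive. For 33 features the estimate is the value of portal exposure 2 alone, so this median mixes both coverages. Among the 38 features with all 12 values the median was 0.86, and 37 were positive.

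Among the 41 features with both values, P11DF3 and P11BD12 had the highest means of portal exposures 2 and 3. P11DF3 stood at 0.48 and 2.33, an estimate of 1.40 with an SE of 0.37 (adjusted p = 0.25 by limma), and P11BD12 at 0.25 and 2.48, an estimate of 1.36 with an SE of 0.66 (adjusted p = 0.366 by limma). Both features were much higher in exposure 3 than in exposure 2. A3M15 and P13AD1 had the lowest means. A3M15 stood at 0.16 and -0.31 and P13AD1 at 0.17 and -0.09, and both had their higher value in exposure 2.

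The count of 0 rested on portal exposure 2. Without it, 21 of the 41 features with a value in portal exposure 3 were above control at an adjusted p of 0.05 by limma, and 0 were below it, against 9.97% and 5.84% of all features with a value, where the lone portal exposure is assumed to vary like the other groups. Without portal exposure 3 no feature passed, and the count above control at an unadjusted p under 0.05 was 3 of 74, against 2.05% of all features. With the exposure number as a replicate block, P11CF11, P7BA9 and P7BB5 passed, with estimates of 1.11, 0.95 and 1.11 (adjusted p = 0.0348, 0.0479 and 0.0447 by limma), against 0.246% of all features above control. Such a block removes differences common to all exposures of a number. No feature passed below control with the block, against 1.17% of all features. With the number as a random block, or as a block in a fit of upstream and portal exposures only, none of the 74 passed, and the smallest adjusted p was 0.217 and 0.0652 by limma.

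Upstream water, of which the choice used only that 2 values were present, gave values on both sides of 0 that differed between its exposures. These values are not fully independent of the choice. Across all tested features, portal exposure 1, which the choice used, correlated at 0.657, -0.194 and 0.541 with upstream exposures 1, 2 and 3. Upstream values of those signs were thus favoured by the choice. A level of 0.5 was reached by 22 of 72 features in exposure 1, 0 of 70 in exposure 2 and 25 of 68 in exposure 3. Over all tested features with a value, 3.84%, 3.91% and 6.34% reached it. At -0.5 or below lay 1, 8 and 8 features, against 764 of 6450, 155 of 6187 and 529 of 6040 of all tested features. The medians of the 74 features were 0.20, -0.16 and 0.33 in upstream exposures 1, 2 and 3, and those of all tested features 0.0099, -0.027 and -0.018. In exposures 1 and 3, 46 of 72 and 51 of 68 values were positive, and in exposure 2 only 17 of 70. A positive value in exposures 1 and 3 with a negative value in exposure 2 occurred in 28 of the 62 features with 3 upstream values, against 12.1% of all tested features. All 3 values were positive in 7 of the 62 and negative in 9, against 21.4% and 22% of all tested features. These patterns depend on the direction of upstream exposure 2. With it turned, all 3 values were positive in 28 of the 62 and negative in 1, against 12.1% and 12.6% of all tested features, and the mixed pattern occurred in 7, against 21.4%.

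None of the 74 passed the test of upstream water against control by limma, where 0.0154% of all features passed below control and 0% above. At an unadjusted p under 0.05, 4 were above and 8 below control, against 7.26% and 8.76% of all features. The smallest adjusted p was 0.0958, for A6A24. Without upstream exposure 2, 12 were above and 8 below control at the unadjusted threshold, against 7.41% and 8.23%. With that exposure turned, 10 were above and 0 below, against 1.14% and 2.88%, so the balance of signs depended on its direction. The site means ran from -0.63 to 0.71 with a median of 0.16.

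P4CB5, described above, and P1CB2 had the highest upstream means among features with 3 values. P1CB2 stood at 0.99, -0.13 and 1.07, an average of 0.64 ± 0.67 (SD, n = 3; adjusted p = 0.2 by limma), and it shared the low second value of P4CB5. The lowest were P8BG4 and P13AD1. P8BG4 stood at -0.44, -0.54 and -0.70, an average of -0.56 ± 0.13 (SD, n = 3; adjusted p = 0.129 by limma), and P13AD1 at -0.28, -0.66 and -0.69, an average of -0.54 ± 0.23 (SD, n = 3; adjusted p = 0.142 by limma). Both were negative in all 3 exposures although they averaged 1.74 and 1.72 in tailings water. With upstream exposure 2 turned, their averages were -0.20 and -0.10.

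With the exposure number as a replicate block, 4 features were below control in upstream water, A2A15, A3L14, A6A24 and P8BG4, with estimates of -0.50, -0.69, -0.53 and -0.56 and adjusted p-values by limma from 0.0434 to 0.0499, against 2.37% of all features. After quantile normalisation A6D10 and P8BG4 passed below control (adjusted p = 0.0458 and 0.0476 by limma), against 0.892%. With equal spread on each array A6D10 passed alone (adjusted p = 0.0486 by limma), against 1.03%. With the number as a random block, or as a block in a fit of upstream and portal exposures only, none passed, and the smallest adjusted p was 0.12 and 0.0771 by limma. No feature of the 74 passed above control with the block or under either scaling, against 1.29% of all features with the block, 1.71% after quantile normalisation and 1.49% with equal spread.

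Set against the upstream exposure of the same number, with the deposited directions, portal water was higher in nearly all of the features that had both values. Each number compares a single pair of exposures. In number 2 the portal value was above the upstream value in 67 of 70 features, by a median of 0.28, whereas over all tested features it was above in 54.6% and the median difference was 0.02. The 3 exceptions were A1K2, A6J11 and P5BE5. In number 3 it was above in 41 of 41, by a median of 0.85, against 49.8% and a median of -0.00078. In number 1, which the choice used, the difference was positive in 72 of 72 with a median of 1.17, against 46% and a median of -0.017. Subtracting exposures of one number removes any control RNA that both shared.

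**Figure D2:**
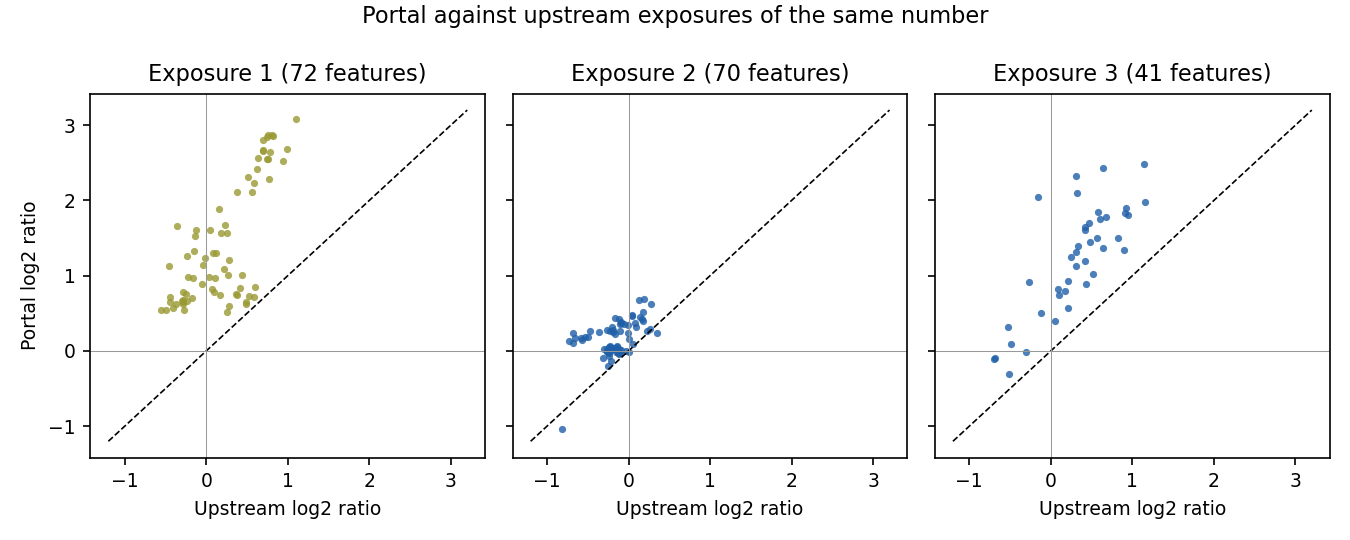
Portal log2 ratio (vertical axis) against upstream log2 ratio (horizontal axis) of the 74 features in exposures 1, 2 and 3, one panel each; points are features with both values, and the dashed line marks equal values. All 72 points of exposure 1, 67 of 70 of exposure 2 and all 41 of exposure 3 lie above the line, closest to it in exposure 2.

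Both counts depended on how the ratios were handled. With upstream exposure 2 turned, the portal value was above the upstream value in 31 of 70 features, against 45.9% of all tested features, so the number 2 result holds only if that exposure has the deposited direction. With upstream exposure 3 turned, the number 3 count was 35 of 41, against 47.2% of all tested features, and with portal exposure 3 turned it was 6 of 41, against 52.8%. After quantile normalisation the number 3 count was 29 of 41, against 42.3% of all tested features, and with equal spread on each array it was 39 of 41, against 54.7%. The number 2 count was 67 of 70 under both scalings.

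The limma test of portal exposures 2 and 3 against all 3 upstream exposures, which does not use the numbers, passed none of the 74 and 0% of all features in either direction. At an unadjusted p under 0.05, 15 were higher in portal water and 0 lower, against 2.03% and 0.769%. Without upstream exposure 2 these counts were 9 and 7, against 1.72% and 1.03%, and with it turned they were 7 and 1, against 1.26% and 0.769%. Differences ran from -0.67 to 1.33 with a median of 0.40. Both portal exposures lay above all 3 upstream exposures in 13 of the 39 features with those 5 values, against 5.69% of all tested features, and below them in 0 of 39, against 7.78%. With the exposure number as a replicate block no feature passed. Without portal exposure 2, P11DF3, P13DE11 and P3CB12 passed, with differences of 2.26, 1.60 and 2.02 (adjusted p = 0.0396, 0.0432 and 0.0489 by limma), and 0 of 41 were lower, against 0.586% and 0.406% of all features with a value.

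All tailings and creek values lay above all upstream values in 61 of the 74 features, against 12.5% of all tested features. The choice fixed most of this count.

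The 74 features did not share a single profile. They were grouped by the root mean square difference of their exposure values, with average linkage and a limit of 0.5 log2 units, a grouping made after the values were seen and not tested. It gave 8 groups of at least 4 features, which held 69 of the 74, and 5 features alone. Groups are numbered by their median over tailings and creek water, from the highest to the lowest.

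**Figure D3:**
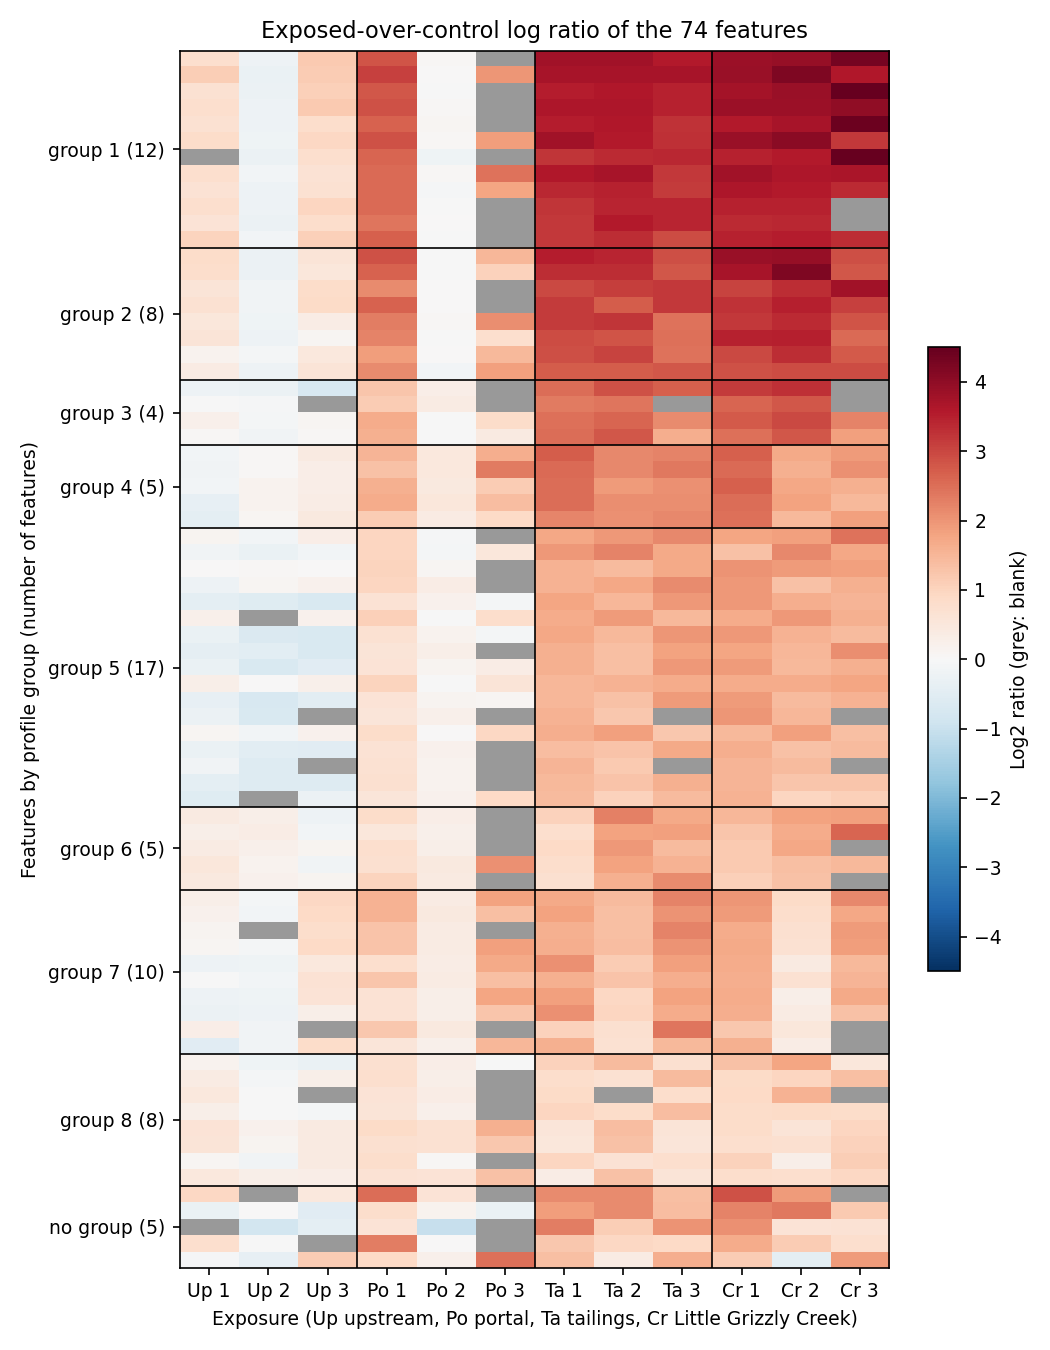
Log2 ratio (colour) of the 74 features (rows, by profile group and then by their mean over tailings and creek water) in the 12 exposures (columns); grey cells are blank. The colours are deepest in tailings and creek water, near 0 in portal exposure 2 for groups 1 and 2, and blue in the upstream exposures for much of group 5.

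Groups 1 and 2 had the highest medians in tailings and creek water. Group 1 had 12 features, with medians from 3.39 to 3.84 in the 6 tailings and creek exposures. Its medians were 2.68, 0.026 and 1.94 in portal exposures 1, 2 and 3, where 4 of the 12 had a value in exposure 3. In upstream exposures 1, 2 and 3 they were 0.75, -0.24 and 0.94. Every upstream value of the group was positive in exposures 1 and 3 and negative in exposure 2, a likeness that the grouping itself used and whose signs rest on the deposited direction of each exposure. Group 2, with 8 features, repeated this at a lower level, with 2.27, 0.0049 and 1.47 in the portal exposures and 0.57, -0.21 and 0.54 in the upstream exposures. Again all values were positive in upstream exposures 1 and 3 and negative in exposure 2.

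Group 5 was the largest, with 17 features, and differed from groups 1 and 2 in upstream water. Its medians there were -0.27, -0.49 and -0.26 in exposures 1 to 3, against 1.42 to 1.76 in the tailings and creek exposures. In portal exposures 1, 2 and 3 they were 0.70, 0.15 and 0.50. Upstream values were negative in 12 of 17, 12 of 15 and 9 of 15 features. The closest pair of all 74 belonged to this group: P13AD1 and P8BG4 differed by a root mean square of 0.068 over 12 exposures.

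Group 7, with 10 features, had a lower median in exposure 2 of each site than in exposures 1 and 3 of that site. Its medians were 0.60 in creek exposure 2, against 1.68 and 1.71 in creek exposures 1 and 3, and 1.22 in tailings exposure 2, against 1.68 and 1.93. In portal exposures 1, 2 and 3 they were 1.22, 0.37 and 1.60, and in upstream exposures 0.034, -0.16 and 0.80. Upstream exposure 3 was positive in all 9 features with a value, and exposure 2 negative in all 9. Groups 1 and 2 also had their lowest portal and upstream medians in exposure 2, and their portal exposure 2 medians were below that of group 7.

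The other groups were smaller or lower. Group 6, with 5 features, had its lowest tailings and creek medians in exposure 1 of each, 0.79 and 1.19, against 1.66 to 1.84 in exposures 2 and 3. Group 4, with 5 features, had the highest portal exposure 2 median, 0.46, and was negative in upstream exposure 1 in all 5. Group 3, with 4 features, had medians of 2.03 to 2.88 in tailings and creek water and between -0.13 and 0.05 upstream. Group 8, with 8 features, was the lowest, at 0.73 to 1.31 in tailings and creek water and 0.43, -0.0081 and 0.31 upstream.

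**Figure D4:**
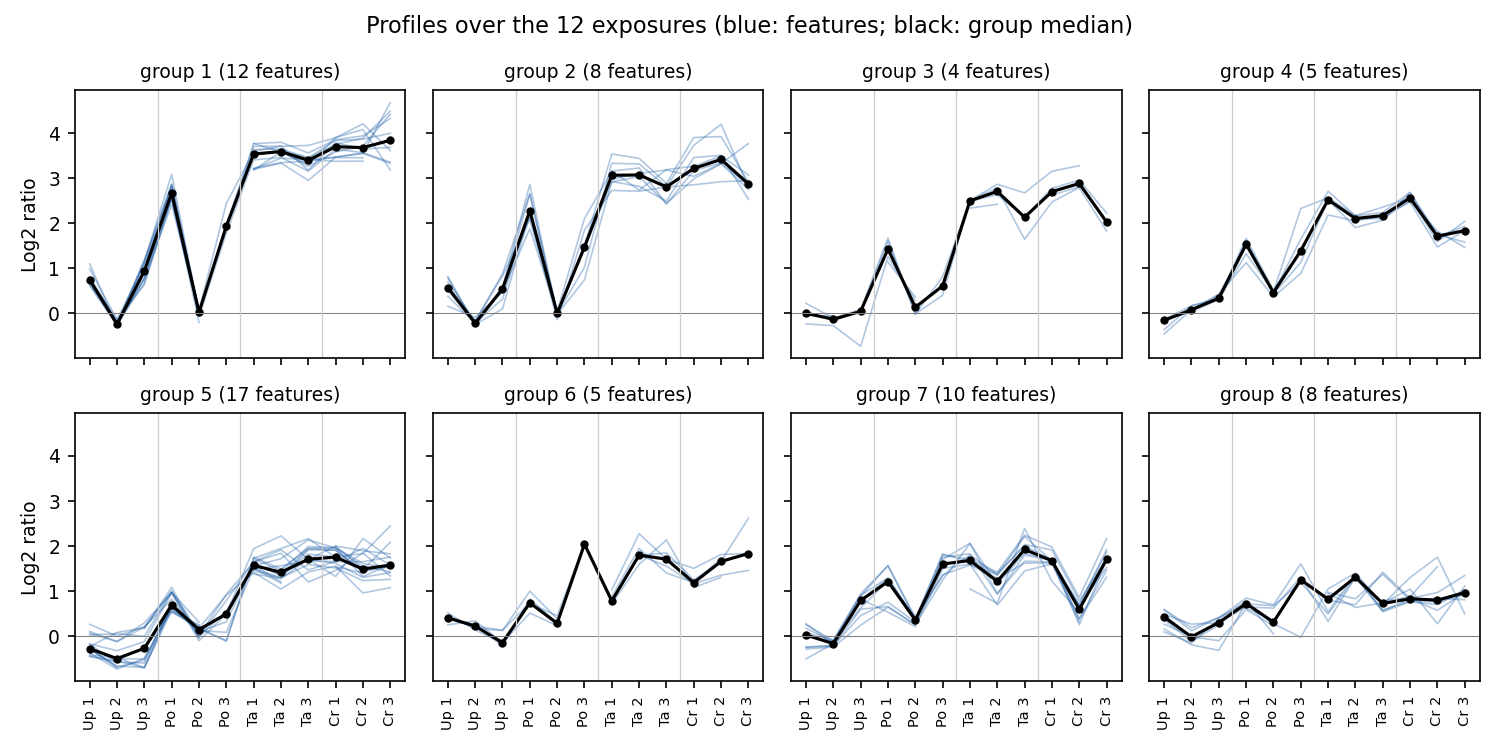
Log2 ratio (vertical axis) over the 12 exposures (horizontal axis) for the 8 profile groups; blue lines are features and black lines group medians. Groups 1 and 2 drop to 0.026 and 0.0049 in portal exposure 2, group 7 dips to 0.60 in creek exposure 2, and group 5 lies below 0 in the upstream exposures at medians of -0.27, -0.49 and -0.26.

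The features alone were A3M15, A6J11, A6P16, P11BD12 and P3CD2. P3CD2 stood at 2.29 in portal exposure 1, above its 3 tailings values of 1.23, 0.92 and 0.89 and its 3 creek values of 1.68, 1.16 and 0.76. A6P16 was also high there, at 2.52, with 2.14, 2.14 and 1.36 in the tailings exposures and 2.88 and 1.90 in creek exposures 1 and 2. P11BD12 had its highest value in portal exposure 3, at 2.48, and its lowest in creek exposure 2, at -0.43. A6J11 was the only feature below -0.5 in portal exposure 2, at -1.04.

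A further 49 features met both site thresholds but not that of portal exposure 1, where their median was 0.21. In tailings and creek exposures their medians lay between 1.01 and 1.21, below those of the 74. In portal exposure 3 they had a median of -0.033 in 26 features with a value, against 1.35 for the 74, and in portal exposure 2 a median of 0.16, against 0.18. In upstream exposures 1, 2 and 3 their medians were -0.10, 0.11 and -0.091, each of the opposite sign to that of the 74. The portal value was above the upstream value in 27 of 47 in number 2 and in 15 of 25 in number 3. The sets were split on portal exposure 1. Across all tested features, that exposure correlated at 0.657, -0.194 and 0.541 with upstream exposures 1, 2 and 3. With portal exposures 2 and 3 it correlated at 0.375 and 0.49. The opposite upstream signs and the gap in portal exposure 3 were thus favoured by the split. Both sets were chosen from these arrays, so the differences are given without a test.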

How the data were processed

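The authors deposited 1 log ratio per feature and array, read here as log2, in a table of 24 arrays, per the labels 2 arrays of opposite dye for each of 12 exposures. Scanning, background correction, normalisation, filtering and log base are not given in the sources used here. Array medians between -0.0265 and 0.0177 show that the values were centred. Blank cells were left blank, and an exposure value needed both arrays.

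limma 3.58.1 in R 4.3.3 (lmFit, eBayes) was fitted to all 6504 features with values in at least 2 exposures of each site, with 1 mean each for upstream, portal exposure 1, portal exposures 2 and 3, tailings and creek, and Benjamini-Hochberg adjustment over all features within a comparison. It was run on simulated data in which the exposures varied independently. That run cannot show how the fit behaves where exposures of one number deviate together or share control RNA. Where control RNA was shared, a ratio set against 0 does not carry the controls' own variation. The 74 features, the named features and the tests were chosen with earlier results of these data known. Named features are at most 2 in each direction by site mean, by upstream and portal means and by the creek and tailings difference, those next to the thresholds, and those in counts of 5 or fewer, named after their values were seen. Lists by gene function could not be used.

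Same-numbered upstream and portal exposures deviated together from their site means (correlations of 0.482, 0.587 and 0.812 across features for numbers 1, 2 and 3), so the exposure number was taken to pair them. Tailings and creek exposures of one number also deviated together, at 0.497, 0.514 and 0.39. The remaining site pairs were less even. In number 1 they gave -0.215 for upstream and tailings and -0.0349 for upstream and creek. In number 3 they gave -0.0636 for portal and tailings but 0.638 for upstream and creek. A block over all 4 sites therefore assumes more than the data show. Alternatives were other scalings, filters on blanks, blocks, fits of fewer exposures, other thresholds and leaving out each exposure.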

Additional observations from a re-analysis of the deposited data

Results flagged for a closer look

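In 2 of the 39 features with all 6 portal and upstream values, every portal exposure was above 0 and every upstream exposure below 0. These were A2A14 and A2A15, which have adjoining position codes. A2A14 stood at 0.63, 0.13 and 0.091 in portal exposures 1, 2 and 3 and at -0.37, -0.73 and -0.48 in upstream exposures 1, 2 and 3. A2A15 stood at 0.62, 0.11 and 0.32 in the portal and at -0.28, -0.68 and -0.53 in the upstream exposures. Portal exposure 1 was used to choose the features, which fixed its sign. The share of all tested features with this pattern was not counted, so the 2 of 39 is a description only. For portal exposures 2 and 3 against upstream water the estimates were 0.64 (SE 0.21) and 0.71 (SE 0.20), with an adjusted p of 1 for both by limma (n = 2 against 3 exposures), so the difference did not pass. With upstream exposure 2 turned, neither feature would have upstream values on one side of 0.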

How the results depend on the processing

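The number of chosen features lay between 67 and 81 under other scalings, blank filters and thresholds, and between 60 and 76 without 1 tailings or creek exposure. Medians over the 74 in the 5 exposures not used for the choice kept their sign under other scalings, single dyes and thresholds. They moved by less than the SD of a site's exposure medians, 0.255 for upstream and 0.825 for portal exposures 2 and 3. The portal SD comes from only 2 medians that lie far apart, 0.18 and 1.35, so it is a loose limit. The median of portal exposure 3 ran from 0.63 to 1.41. Counts past limma's threshold were 0 in each comparison and differed from 0 only as follows. In upstream water below control they were 2 after quantile normalisation, 1 with equal spread and 4 with the exposure number as a replicate block. In portal exposures 2 and 3 above control they were 3 with the replicate block and 0 to 21 when leaving out 1 exposure, and above upstream water 0 to 3 when leaving out 1 exposure, the highest without portal exposure 2 in both. With a random block, or a block in upstream and portal exposures only, all were 0. Replicate blocks changed no other such count. Added after seeing the data, turning upstream exposure 2 gave 31 of 70 features with portal above upstream in number 2, and in number 3 accepting values from 1 array gave 66 of 72 and turning portal exposure 3 gave 6 of 41. The causes were not tested. Without signals per channel, the brightness behind a ratio is unknown.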

Other observations

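Position codes begin with A in 2688 of the 7680 features and with P in the others, and the meaning of the letters is unstated. Of the 74 features, 19 (25.7%) carried A, against 28.1% of all tested features. Groups 1, 2 and 7 held 0 of these 19 and group 5 held 7. Of the 2701 pairs among the 74, 24 differed by a root mean square under 0.15 log2 units over the exposures they shared, and 25 features had such a neighbour. Whether such features represent the same transcript was not tested.

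Among the 74, the highest value of a feature fell in creek exposure 2 in 18 features, in tailings exposure 3 in 14 and in creek exposure 1 in 13. The lowest fell in upstream exposure 2 in 42 features, and in 14 with that exposure turned, where portal exposure 2 was lowest in 29.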
